A study of Mus musculus with 7 samples.

Results

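The regions described here were the peaks of lactylated histone H3 in mouse retina that lay at the promoters of long noncoding RNA (lncRNA) transcripts. They were chosen from the deposited peak table by annotation alone, as peaks called promoter whose nearest transcript had the biotype lincRNA (a long RNA lying between genes) or antisense (a long RNA read from the opposite strand of another gene). Of 108253 peaks, 17144 were annotated as promoter and 1589 met the rule, 1119 for lincRNA and 470 for antisense transcripts of 1491 genes in all. The comparison set was the 11100 promoter peaks of protein-coding transcripts. The mark was lactylation of lysine 18 of histone H3 (H3K18La), mapped by CUT&Tag, in which an antibody brings an enzyme to the mark and the DNA around it is recovered and sequenced. Retinas of mice with the genotype C57Bl/6J were taken at postnatal day 4 (P4, 2 libraries), day 10 (P10, 2 libraries) and day 28 (P28, 3 libraries) and dissociated with papain. No treatment or engineered allele was labelled, and the batch label set P28 replicate 1 (batch 2) apart from the other libraries. The labels do not say whether the libraries of an age came from separate animals, nor whether retinas were pooled, so p-values measure the spread between these libraries only.

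An lncRNA gene is transcribed by RNA polymerase II and usually carries a cap and introns like a protein-coding gene, but its transcript is not read into protein. Some lncRNAs act where they are made, on the genes beside them, as the transcripts of imprinted clusters and of the X inactivation centre do, and others serve as hosts from which small nucleolar RNAs or microRNAs are cut. Histone lactylation uses lactate, the product of glycolysis, and H3K18La is found at active promoters and enhancers. Between P4 and P28 the retina passes from birth of its last neurons through photoreceptor differentiation and eye opening to maturity. The retina holds many cell types, so in these bulk libraries a change in the number of cells of a type and a change in the mark per cell cannot be told apart.

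The promoter sequences below show the range of the set. Each runs from 250 bases before the deposited transcript start to 50 bases from it on, read 5′ to 3′ on the transcript's strand from the RefSeq copy of the GRCm38.p6 genome. Capitals mark the GC box (GGGCGG, or CCGCCC on the other strand, bound by SP proteins) and the core of the site of the photoreceptor factors CRX and OTX2 (TAATCC, or GGATTA on the other strand). A capital run is a match of letters and says nothing about binding. Otx2os1, at chr14:48668458-48668757 on the plus strand, and Ube4bos1, at chr4:149347635-149347934 on the plus strand, are shown for their large rises after P4. Gm14268, at chr2:166398138-166398437 on the minus strand, had the highest level at P28 of those shown. Malat1, at chr19:5802623-5802922 on the minus strand, is an abundant nuclear RNA. Snhg10, at chr12:105032228-105032527 on the minus strand, stands for the CpG-rich promoters. Gm17231, at chr9:57825695-57825994 on the plus strand, holds 2 matches to the CRX and OTX2 core. 4930555A03Rik, at chr3:151293876-151294175 on the plus strand, is shown for its fall after P4.
Otx2os1: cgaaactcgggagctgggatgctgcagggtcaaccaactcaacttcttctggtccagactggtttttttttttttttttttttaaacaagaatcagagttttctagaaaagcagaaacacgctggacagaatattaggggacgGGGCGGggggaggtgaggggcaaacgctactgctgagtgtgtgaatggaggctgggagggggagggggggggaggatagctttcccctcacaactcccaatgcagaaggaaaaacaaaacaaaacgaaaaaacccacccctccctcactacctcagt
Ube4bos1: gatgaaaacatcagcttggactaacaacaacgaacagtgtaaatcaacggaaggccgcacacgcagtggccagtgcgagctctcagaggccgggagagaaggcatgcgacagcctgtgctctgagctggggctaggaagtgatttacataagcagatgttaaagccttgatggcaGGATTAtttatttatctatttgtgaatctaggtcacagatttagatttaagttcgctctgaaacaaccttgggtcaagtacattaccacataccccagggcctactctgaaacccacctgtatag
Gm14268: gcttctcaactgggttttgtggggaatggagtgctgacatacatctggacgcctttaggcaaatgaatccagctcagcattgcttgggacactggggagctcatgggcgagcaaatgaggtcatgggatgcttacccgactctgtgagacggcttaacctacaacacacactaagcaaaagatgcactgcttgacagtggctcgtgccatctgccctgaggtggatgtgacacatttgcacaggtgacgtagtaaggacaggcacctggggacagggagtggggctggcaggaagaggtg
Malat1: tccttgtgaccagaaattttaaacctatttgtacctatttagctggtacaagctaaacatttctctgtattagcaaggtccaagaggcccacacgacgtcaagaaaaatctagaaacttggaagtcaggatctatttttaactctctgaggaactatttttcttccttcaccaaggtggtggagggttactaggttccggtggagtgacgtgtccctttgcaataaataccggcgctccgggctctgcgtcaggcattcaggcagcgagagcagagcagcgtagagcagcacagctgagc
Snhg10: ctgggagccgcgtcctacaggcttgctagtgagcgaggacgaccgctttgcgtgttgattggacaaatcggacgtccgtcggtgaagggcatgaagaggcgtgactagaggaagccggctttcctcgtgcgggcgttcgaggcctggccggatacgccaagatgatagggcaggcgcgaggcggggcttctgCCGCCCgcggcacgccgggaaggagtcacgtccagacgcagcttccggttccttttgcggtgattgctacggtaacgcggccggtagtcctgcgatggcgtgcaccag
Gm17231: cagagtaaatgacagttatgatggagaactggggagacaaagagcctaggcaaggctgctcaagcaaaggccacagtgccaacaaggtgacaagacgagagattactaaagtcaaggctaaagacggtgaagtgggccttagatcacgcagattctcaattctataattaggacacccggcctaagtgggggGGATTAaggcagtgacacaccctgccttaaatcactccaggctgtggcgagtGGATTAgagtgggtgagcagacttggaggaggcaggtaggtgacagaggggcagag
4930555A03Rik: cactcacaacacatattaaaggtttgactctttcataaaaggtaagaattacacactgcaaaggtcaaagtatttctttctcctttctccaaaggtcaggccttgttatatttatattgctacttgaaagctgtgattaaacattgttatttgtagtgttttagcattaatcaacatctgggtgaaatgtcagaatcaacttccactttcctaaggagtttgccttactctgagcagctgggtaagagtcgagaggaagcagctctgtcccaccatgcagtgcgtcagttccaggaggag

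As a set, lncRNA promoters differed from coding promoters in sequence and place. Only 197 members (12.4%) were CpG-rich in the 300-base window, meaning a CpG observed-to-expected ratio of at least 0.6 and a GC share of at least 0.5, against 60.3% of coding promoter peaks. Median GC content was 51.3% at lncRNA and 60.0% at coding promoters, and the median CpG observed-to-expected ratio was 0.29 against 0.71. Antisense promoters were CpG-rich in 17.7% and lincRNA promoters in 10.2%. Of the sequences shown, the Snhg10 window holds 36 CpG dinucleotides and the 4930555A03Rik window 2. The deposited annotation lists a protein-coding start only where a peak of the table was assigned to it. Such a start lay within 1000 bases of 68 members (4.28%), and any coding start of the fuller GENCODE M21 annotation within 1000 bases of 135 (8.50%). Of those 135, 63 had the coding gene diverging from the lncRNA, 62 had it convergent or overlapping and 10 had it on the same strand. Among the 68 members near a listed coding start, 48.5% were CpG-rich, against 10.8% of the others. Members had a median width of 958 bases (215 to 4787), narrower than the 1154 bases of coding promoter peaks, and the transcript start lay inside the peak for 73.6% against 92.7%. A single peak represented 1400 of the genes, 84 genes had 2 peaks and 7 had 3, among them Ftx and Lncpint. The X chromosome held 15 members (0.944%), against 3.0% of coding promoter peaks.

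Depth set how finely single members could be measured. Reads in all peaks ranged from 199970 in P10 replicate 1 to 8274373 in P28 replicate 2. The median member had 1 to 4 reads in the P4 and P10 libraries and 10 to 53 at P28, and 37.9% of members had no read in P10 replicate 1. At the median member width 3 reads, the most that a count of 0 allows, were worth 1.42 and 1.87 RPKM at P4, 5.65 and 2.47 at P10, and 0.822, 0.193 and 0.541 at P28. RPKM relates the reads of a peak to its length and to a library size that the authors normalized. At 3 reads or fewer in both libraries were 46.8% of members at P4 and 49.3% at P10. The spread between replicates of a member (root mean square SD of log2 RPKM) was 0.51 at P4, 0.84 at P10 and 0.35 at P28. The tissue label was checked on promoter peaks of marker genes. Of 10 rod photoreceptor genes 7 had a promoter peak, and all 7 were higher at P28 (means of 13.2 to 34.7 RPKM) than at P4 (0.421 to 3.27). Markers of other eye cells with a promoter peak (2 of 5 for pigment epithelium, 3 of 4 for endothelium, 0 of 4 for microglia and 1 of 3 for lens) had P28 means between 0.576 and 2.78 RPKM and none was called changed. At P4 their means of 1.33 to 4.28 RPKM overlapped those of the rod markers, so only the P28 values set the rod markers apart. The rod markers rose with the members described below, and their part in the members' changes was not tested.

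Within libraries, the median lncRNA promoter carried as much H3K18La per base as the median coding promoter at P4 and less at P28. At P4, 55.6% and 62.7% of members and 48.2% and 56.1% of coding promoter peaks held 3 reads or fewer. The P4 medians thus rest on few reads. The median member had 1.50 and 1.70 RPKM at P4, 2.03 and 3.03 at P10, and 2.69, 3.27 and 3.75 at P28. The median coding promoter had 1.54 and 1.63 RPKM at P4, 2.47 and 3.29 at P10, and 4.52, 4.88 and 5.59 at P28. The ratio of these medians was 0.974 and 1.04 at P4, 0.822 and 0.921 at P10, and 0.595, 0.670 and 0.671 at P28, with no overlap between the ages. On the scale of median log2(RPKM + 1), lncRNA minus coding was 0.01 ± 0.04 (SD, n = 2) at P4, and -0.14 ± 0.07 (SD, n = 2) at P10. It was -0.50 ± 0.07 (SD, n = 3) at P28. From P4 to P28 this difference fell by 0.51, beyond the spread between libraries, at an exact two-sided permutation p of 0.2, the smallest that 3 against 2 libraries allow. From P10 to P28 it fell by 0.36 (exact permutation p = 0.2). Within batch 1 alone it fell by 0.47 from P4 to P28. Over all 7 libraries the mean difference was -0.26, negative in 6 of 7 (exact sign-flip permutation p = 0.047). Adjusted over the 6 sign-flip tests run, that p was 0.056. The unadjusted p rose above 0.05 when any library other than P4 replicate 2 was left out (means of -0.294 to -0.201). With only peaks of high mean RPKM the mean difference was -0.0059 and the change from P4 to P28 was -0.258. Peaks outside promoters had medians of 1.37 and 1.52 RPKM at P4 and 1.93, 2.32 and 2.53 at P28, so the median member stood above them in every library.

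**Figure D1:**
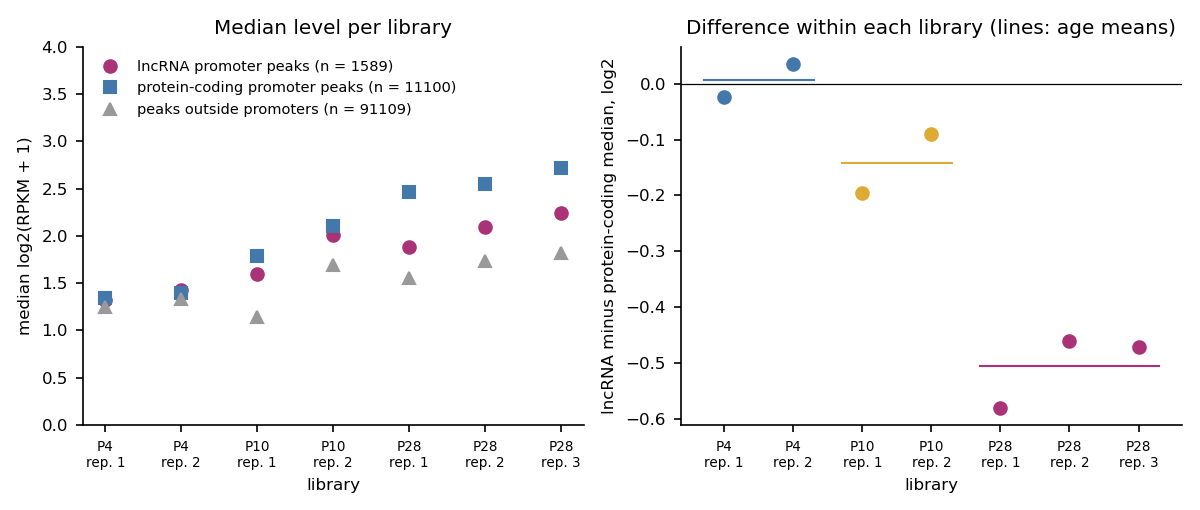
Median H3K18La level, as log2(RPKM + 1), of lncRNA promoter peaks, protein-coding promoter peaks and peaks outside promoters in each of the 7 libraries (left), and the lncRNA minus coding difference with lines at the age means (right). The lncRNA and coding medians lie together at P4 (1.32 and 1.43 against 1.34 and 1.40) and apart at P28 (1.88, 2.09 and 2.25 against 2.47, 2.56 and 2.72).

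Reads took a different course from the medians. Of all reads in lncRNA and coding promoter peaks, the lncRNA peaks held 11.4% (Wilson 95% interval 11.2% to 11.7%) and 12.2% (11.9% to 12.5%) at P4. They held 13.6% (13.2% to 13.9%) and 15.2% (15.0% to 15.4%) at P10. At P28 they held 9.93% (9.83% to 10.02%), 10.8% (10.7% to 10.8%) and 10.6% (10.6% to 10.7%). The intervals cover counting error only, since reads were not marked by molecular identifiers. The share was higher at P10 than at P4 by 2.55 percentage points (exact permutation p = 0.33, the smallest for 2 against 2) and its change from P4 to P28 was -1.37 points (exact p = 0.2), and no ages overlapped. In reads per base, members stood at 1.02 and 1.10 times the coding promoters at P4, 1.24 and 1.41 times at P10, and 0.872, 0.954 and 0.942 times at P28. The rise of the share from P4 to P10 was 2.03 points without the 10 promoter peaks with most reads and 1.72 without the 10 lncRNA peaks highest at P10. The 10 members with most reads held 5.98% and 5.90% of member reads at P4, 12.3% and 12.2% at P10, and 8.77%, 8.01% and 7.93% at P28. Thus at P10 the mean density of lncRNA promoters exceeded that of coding promoters while their median lay below it.

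**Figure D2:**
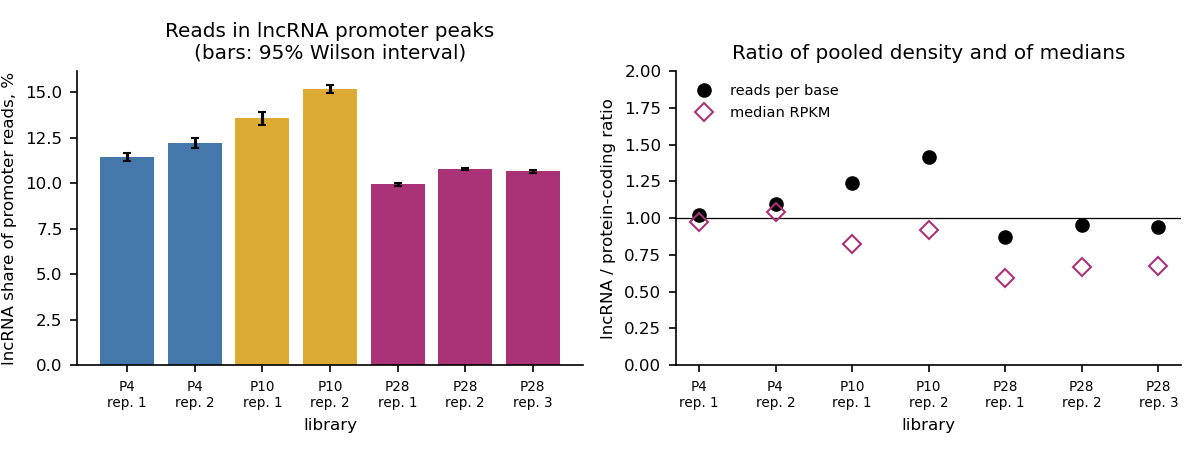
Percent of reads in lncRNA and protein-coding promoter peaks that fell in lncRNA promoter peaks, by library, with Wilson 95% intervals (left), and the lncRNA to coding ratio of reads per base and of median RPKM (right). Both P10 libraries (13.6% and 15.2%) lie above the P4 libraries (11.4% and 12.2%), and the P28 libraries (9.93% to 10.8%) lie below both ages.

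On the authors' scaling, most lncRNA promoters had a higher mean at P28 than at P4, and the median gain was smaller than that of coding promoters. The mean log2(RPKM + 1) was higher at P28 in 73.1% of members, with a median change of 0.82, against 90.0% and 1.35 for coding promoters and 66.5% and 0.68 over all peaks. All 3 P28 libraries stood above both P4 libraries in 887 members (55.8%) and below both in 230 (14.5%), against 50.6% and 20.7% of all peaks. By limma at a Benjamini-Hochberg adjusted p under 0.01, 361 members (22.7%) were higher at P28 and 21 (1.32%) were lower. Over all peaks 18.9% were called higher and 4.21% lower, and over coding promoters 33.6% and 0.288%. The share of members called higher was thus somewhat above that of all peaks, and the share called lower was below it. An unadjusted limma p under 0.05 in either direction was found for 50.7% of members, close to the 51.8% of all peaks. The 361 rises belonged to 344 genes and ranged from 1.16 to 4.49 on the log2 scale (median 2.27), and 146 of them had 3 reads or fewer in both P4 libraries. The P28 mean was the highest of the 3 ages in 809 members (50.9%), the P10 mean in 462 (29.1%) and the P4 mean in 318 (20.01%), while 76.6% of coding promoters were highest at P28. Over all peaks these shares were 45.8%, 28.4% and 25.8%, near those of the members.

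The direction of these changes rests on the authors' normalization from large windows. Scaled instead to the reads in peaks, the median over all peaks shifted by -0.97 (P28 against P4) and -0.74 (P10 against P4) on the log2 scale. The median change of the members from P4 to P28 then turned to -0.21, against -0.29 over all peaks and 0.29 over coding promoters, with 139 members called higher and 177 lower, against 7902 and 16845 of all 108253 peaks. With each library centred on its median, 258 members were higher and 93 lower, against 14172 and 10724 of all peaks. In each of these scalings the members' median lay below that of coding promoters and above that of all peaks. Without a single library the number of rises was 131 (P4 replicate 1), 140 (P4 replicate 2), 573 and 574 (P10 replicates 1 and 2), 219, 181 and 180 (P28 replicates 1, 2 and 3), the P28 replicate 1 value being that within batch 1. The number of falls was 13 and 8 without P4 replicates 1 and 2, 49 and 50 without P10 replicates 1 and 2, and 9, 11 and 11 without P28 replicates 1, 2 and 3. Over all peaks the rises moved the same way, from 5644 without P4 replicate 1 to 34795 without P10 replicate 2, and the falls from 1950 without P4 replicate 2 to 7595 without P10 replicate 2. In every one of the settings run, 89 of these calls held, 87 of them rises.

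**Figure D3:**
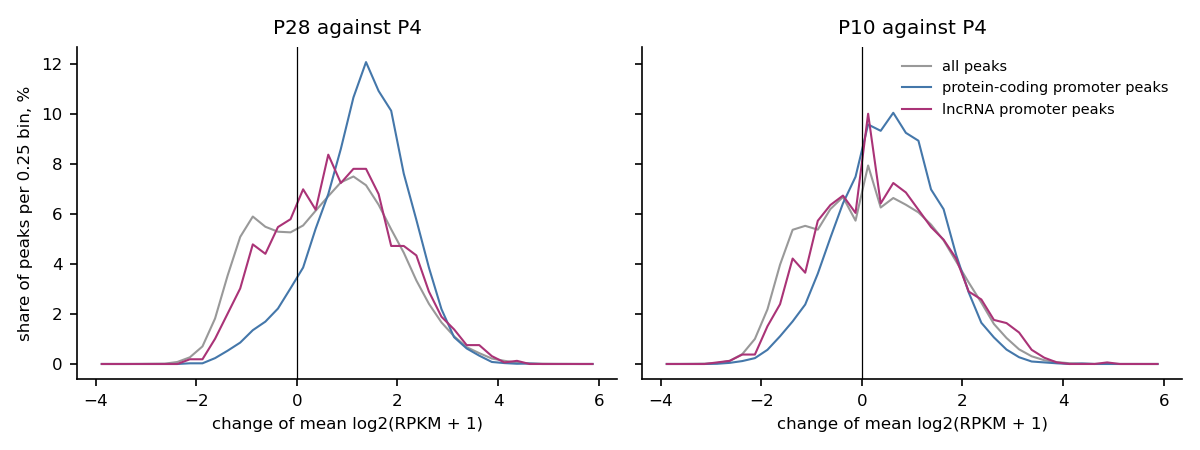
Distribution of the log2(RPKM + 1) change from P4 to P28 (left) and from P4 to P10 (right) over lncRNA promoter peaks, protein-coding promoter peaks and all peaks, as the percent of each set per bin. In the left panel the lncRNA curve (median 0.82) lies left of the coding curve (median 1.35) and is wider to the side of falls.

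From P4 to P10, 234 members (14.7%) rose and 66 (4.15%) fell, where all peaks gave 11.4% and 7.34% and coding promoters 12.3% and 0.892%. The members' median change was 0.36, against 0.56 for coding promoters and 0.23 over all peaks, and it turned to -0.45 when scaled to reads in peaks, with 99 rises and 179 falls, against 4745 and 17419 of all 108253 peaks. Both P10 libraries stood above both P4 libraries in 647 members (40.7%) and below them in 246 (15.5%), against 36.1% and 20.9% of all peaks. Of the 66 falls, 49 had 3 reads or fewer in both P4 libraries, so that they were falls from 1 to 3 reads to fewer. On the recovered reads voom called none of the members lower at P10, and 100 of all peaks. Without P4 replicates 1 and 2 in turn 69 and 82 rises were left, without P28 replicates 2 and 3 124 and 145, while the falls numbered 16, 12, 18 and 26 in the same order, 26 without P10 replicate 1 and 32 without P28 replicate 1. For the first 4 of these libraries all peaks gave 2799, 3188, 5473 and 6853 rises and 2681, 2275, 3220 and 4343 falls. Between P10 and P28 limma called no member and 0.00185% of all peaks. At an unadjusted p under 0.05 were 515 members (32.4%), close to the share of all peaks (32.5%). On the recovered reads limma's voom called 37 members higher and 71 lower at P28, against 2346 and 6594 of all 108253 peaks. Without P10 replicate 2, 241 members were called higher and 19 lower, against 14054 and 2453 of all peaks, and without P10 replicate 1, 13 and 8, against 701 and 399.

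The largest rises took members from almost no reads at P4 to among the strongest lncRNA promoters. Ube4bos1, an antisense transcript at chr4:149347335-149348261, had 0 and 1.29 RPKM at P4, 52.6 and 39.1 at P10, and 26, 35.6 and 38.8 at P28. Every P10 and P28 library stood above both P4 libraries, where 0 and 2 reads were found, and the change from P4 was 4.49 ± 0.37 (SE, adjusted p = 0.00011) at P28 and 4.94 ± 0.41 (SE, adjusted p = 0.00038) at P10. Gm17231, an antisense transcript at chr9:57825654-57826168, had 0 and 1.16 RPKM at P4, 0 and 4.59 at P10, and 24.5, 26.3 and 39.6 at P28. Its P10 libraries lay with the P4 libraries, and only the P28 libraries were high (log2 change 4.37 ± 0.65 SE, adjusted p = 0.00085). That call was lost with a pseudocount of 0.1 and without P4 replicates 1 or 2 (adjusted p = 0.017 to 0.032). The promoter of Arid3b, a coding gene whose start lies 5027 bases away, had 1.38 and 0.602 RPKM at P4 and 8.74, 8.50 and 10.6 at P28 (log2 change 2.39, adjusted p = 0.00076). AI847159, at chr2:129180388-129181103, had 0 and 0.833 RPKM at P4, 20.2 and 7.71 at P10, and 20.2, 23.9 and 28.5 at P28. The P10 libraries differed from each other there, but both lay above P4 (at P28 log2 change 4.20 ± 0.43 SE, adjusted p = 0.00018).

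By their values, other large rises fell into those already made at P10 and those made after it, though limma called no member between P10 and P28. Gm49874, at chr17:28223352-28224451, had 0.413 and 0 RPKM at P4, 14.8 and 12.9 at P10, and 14.1, 17.2 and 19.8 at P28, so that its rise was complete at P10 (P28 against P4, log2 change 3.91 ± 0.31 SE, adjusted p = 0.00011). Gm40323, at chr5:125360487-125361428, had 0.965 and 0 RPKM at P4, 1.92 and 5.86 at P10, and 18.1, 18.9 and 21.6 at P28, and rose after P10 for the most part (log2 change 3.87 ± 0.44 SE, adjusted p = 0.00027). The promoter of Scarb1, a lipoprotein receptor gene whose start lies 19393 bases away, rose as well, by 3.02 (adjusted p = 0.00015). A930041C12Rik, at chr5:107633621-107634262, had 0.708 and 0 RPKM at P4, 0 and 3.68 at P10, and 12.7, 20.1 and 24.5 at P28, and Gm45145, at chr6:82897015-82898532, had 1.5 and 0.393 RPKM at P4, 2.38 and 5.71 at P10, and 17.8, 25.7 and 27.5 at P28. In both, the P10 libraries stayed at or below 5.71 RPKM and the 3 P28 libraries stood well above them (log2 changes from P4 to P28 of 3.90 ± 0.61 (SE, adjusted p = 0.0011) and 3.70 ± 0.41 (SE, adjusted p = 0.00024)). The call of A930041C12Rik was lost with a pseudocount of 0.1 and without P4 replicates 1 or 2 (adjusted p = 0.02 to 0.036). From P10 to P28 the limma adjusted p was 0.017 for Gm40323, 0.016 for A930041C12Rik and 0.012 for Gm45145, all above the threshold of 0.01. The P10 libraries held only 0 to 11 reads in these peaks. 4930445N18Rik, a CpG-rich promoter at chr18:82855476-82855841, rose by 3.86 ± 0.46 (SE, adjusted p = 0.00033). Gm40477, at chr12:85435641-85436701, had 3.43 and 2.25 RPKM at P4, 25.5 and 40.1 at P10, and 46.2, 50.1 and 59.7 at P28. Its log2 change to P28 was 3.80 ± 0.29 (SE, adjusted p = 0.00011). The promoter of Fos, an immediate early gene whose start lies 37189 bases away, had 3.56 and 4.67 RPKM at P4, 31.5 and 43.7 at P10, and 14.7, 20.2 and 18.1 at P28. Both promoters were thus far above P4 at the later ages, with Fos highest at P10 and Gm40477 at P28.

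Several of the strongest lncRNA promoters at P28 had higher values still at P10, though limma called no member between these ages. Gm14268, at chr2:166397826-166399180, had 7.04 and 10.1 RPKM at P4, 77.3 and 112 at P10, and 56.9, 58.7 and 65 at P28. Gm19696, at chr17:84156989-84158409, had 5.44 and 11.8 RPKM at P4, 76.2 and 122 at P10, and 61.5, 57.6 and 60.8 at P28. Both P10 libraries lay above all P28 libraries in each, and all libraries of both ages above P4, with log2 changes to P28 of 2.69 ± 0.26 (SE, adjusted p = 0.00015) and 2.75 ± 0.33 (SE, adjusted p = 0.00031). The call of Gm19696 at P28 was lost without P4 replicate 1 (adjusted p = 0.01003). By limma neither gene differed between P10 and P28 (adjusted p = 0.13 for Gm14268 and 0.18 for Gm19696). Both were also among the highest at P10, a pick made after the values were seen. Pitpnm2os2, on the opposite strand of the phosphatidylinositol transfer gene Pitpnm2 at chr5:124193452-124195416 and chosen after its values were seen, had 3.24 and 9.11 RPKM at P4, 77.2 and 80.2 at P10, and 46.1, 48.8 and 55.6 at P28. It too was highest at P10, while the promoter of Pitpnm2 had 1.75 and 2.30 RPKM at P4, 6.94 and 14.4 at P10, and 12.1, 13.4 and 13.6 at P28. Gm14340, at chr2:180825026-180826697, had 2.99 and 6.42 RPKM at P4, 45.3 and 72.1 at P10, and 50.5, 50.8 and 58.6 at P28. Gm9932, at chr5:100196687-100197843, had 3.53 and 6.7 RPKM at P4, 53.1 and 75.6 at P10, and 44.4, 49.6 and 59.1 at P28. These P10 and P28 ranges overlapped, and all stood above P4 (3.32 ± 0.32 (SE, adjusted p = 0.00015) and 3.13 ± 0.30 (SE, adjusted p = 0.00015) from P4 to P28). Gm14508, at chr5:116009011-116010592, had 2.58 and 3.02 RPKM at P4, 51.4 and 52.3 at P10, and 20.2, 27.7 and 34.6 at P28, and with Ube4bos1 it was among the largest rises from P4 to P10 (log2 change 3.80 ± 0.31 SE, adjusted p = 0.00038). The third was Gm15417, at chr3:89391137-89391928, with 0.574 and 1.51 RPKM at P4, 25.1 and 23.9 at P10, and 13.3, 13 and 13.1 at P28. Its peak ends 141 bases from the start of Zbtb7b, a zinc finger gene read towards it, so reads there cannot be assigned to either gene.

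The members highest at P4 took different courses later. Gm47887, at chr9:55067339-55068729, had 14 and 14.6 RPKM at P4, 22.1 and 46.5 at P10, and 8.49, 11.1 and 9.19 at P28. It was highest at P10 and lowest at P28, but neither change from P4 passed the test. Gm29992, at chr18:14330564-14332662, had 14.5 and 12.2 RPKM at P4, 10.3 and 13.5 at P10, and 4.87, 5.77 and 6.58 at P28. All P28 libraries lay below both P4 libraries, but the change missed the threshold (log2 change -1.09 ± 0.28 SE, adjusted p = 0.013). Gm31333, at chr12:29136627-29138271, stayed level apart from the shallow P10 replicate 1 (log2 change -0.21 ± 0.40 SE, adjusted p = 0.69). Gm47157, at chr13:34814020-34815501, had 11.7 and 12.5 RPKM at P4, 23.1 and 41 at P10, and 28.3, 27.7 and 38.5 at P28. All of its later libraries were above P4 (log2 change 1.30 ± 0.30 SE, adjusted p = 0.0069), though the change reversed to -0.18 when scaled to reads in peaks. The call was lost with a pseudocount of 0.1, when scaled to reads in peaks and without P4 replicates 1 or 2 or P28 replicates 1, 2 or 3 (adjusted p = 0.023 to 0.068). Gm12802, an antisense transcript at chr4:107127108-107127481, had 10.9 and 9.57 RPKM at P4, 62.8 and 86.4 at P10, and 19.6, 23.2 and 21.7 at P28. Its P10 libraries stood far above both other ages, with 2.73 ± 0.27 (SE, adjusted p = 0.00043) from P4 to P10 in every setting run. The change of 1.00 from P4 to P28 missed the threshold (adjusted p = 0.0103).

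Falls were few, and most came from low read counts. 4930555A03Rik, at chr3:151294096-151294697, had 8.3 and 10.9 RPKM at P4, 3 and 6.55 at P10, and 0.872, 1.23 and 2.58 at P28. The P28 libraries lay below both P4 libraries, which held 22 reads together, and the change was -2.10 ± 0.43 (SE, adjusted p = 0.0043). Gm29823, at chr16:70953285-70954432, had 5.94 and 4.68 RPKM at P4, 4.72 and 5.49 at P10, and 0.457, 0.857 and 0.301 at P28, with P10 at the level of P4 and all P28 libraries below (log2 change -2.04 ± 0.40 SE, adjusted p = 0.0032). The call of 4930555A03Rik was lost with a pseudocount of 0.1 and without P4 replicates 1 or 2 or P28 replicates 1 or 2 (adjusted p = 0.019 to 0.06), and that of Gm29823 without P4 replicates 1 or 2 or P28 replicates 1, 2 or 3 (adjusted p = 0.011 to 0.033). D730003K21Rik, Gm6260 and Gm41333 had at most 3 reads in any P4 library, and their log2 changes were -2.06 ± 0.36 (SE, adjusted p = 0.0017), -1.75 ± 0.29 (SE, adjusted p = 0.0015) and -1.72 ± 0.32 (SE, adjusted p = 0.0026). Each of these calls was lost without P4 replicate 2 or P28 replicate 1, that of D730003K21Rik also without P28 replicate 2, that of Gm6260 without P28 replicate 3 and that of Gm41333 without P4 replicate 1 or P28 replicate 3 (adjusted p = 0.0114 to 0.019), and all 3 with a pseudocount of 0.1. Over the 21 falls the log2 change ranged from -2.10 to -0.87, and 16 had 3 reads or fewer in both P4 libraries. The largest falls from P4 to P10, in Gm44169, Gm15831 and Gm35040, ended at 0 reads in both P10 libraries from at most 6 reads per P4 library (-2.80 ± 0.54 (SE, adjusted p = 0.0041), -2.73 ± 0.56 (SE, adjusted p = 0.0052) and -2.59 ± 0.47 (SE, adjusted p = 0.0032)). At that depth their size is not resolved, and each was lost without P4 replicates 1 or 2 or P28 replicates 2 or 3, that of Gm15831 also without P28 replicate 1 (adjusted p = 0.01007 to 0.038), and all 3 with voom.

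Of 14 lncRNA genes listed for the retina and eye, 6 had a member peak, 1 each. From P4 to P10, 5 of the 6 rose, where 11.4% of all peaks did, with a median log2 change of 1.73. Scaled to reads in peaks, 1 of the 6 rose and the median was 0.52. At P28, 3 were higher than at P4, where 18.9% of all peaks were, with a median of 0.91. When scaled, that median turned to -0.47, with 1 higher and 1 lower. Otx2os1 is transcribed beside Otx2, which encodes a homeobox factor of photoreceptors and bipolar cells. It had 1.32 and 0 RPKM at P4, 15.8 and 13.8 at P10, and 15.7, 17.6 and 23.9 at P28. The 5 later libraries all stood above P4, by 3.37 ± 0.42 (SE, adjusted p = 0.00087) at P10 and 3.70 ± 0.39 (SE, adjusted p = 0.0002) at P28, of which the P10 call was lost with a pseudocount of 0.1 and the P28 call held in every setting run. A listed start of Otx2 lies 1014 bases from the Otx2os1 peak, and the Otx2 promoter peak at chr14:48664887-48665137 had 1.81 and 2.38 RPKM at P4, 7.19 and 25.1 at P10, and 20.9, 25.7 and 37.8 at P28 (log2 change 3.20, adjusted p = 0.00072). Vax2os lies opposite Vax2, a homeobox gene of the ventral retina, and its CpG-rich promoter at chr6:83702251-83704748 had 1.46 and 1.67 RPKM at P4, 15.9 and 10.1 at P10, and 9.87, 11.4 and 11.7 at P28. It rose by 2.42 ± 0.34 (SE, adjusted p = 0.0012) at P10 and stayed up at P28 (log2 change 2.22 ± 0.31 SE, adjusted p = 0.0006), a call lost when scaled to reads in peaks and without P4 replicate 1 (adjusted p = 0.0104). The P10 call was lost in that scaling too and without P4 replicates 1 or 2 (adjusted p = 0.0101 to 0.012). Vax2 itself had 1.11 and 0.878 RPKM at P4, 5.31 and 10.8 at P10, and 7.07, 9.28 and 11.3 at P28.

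Of the other 4 members of that list, 3 were highest at P10. Six3os1 lies opposite Six3, a homeobox gene of the eye field, and had 4 and 4.37 RPKM at P4, 15.9 and 17.3 at P10, and 4.23, 10.1 and 8.36 at P28. Both P10 libraries stood above every other library, the rise from P4 to P10 was 1.76 ± 0.39 (SE, adjusted p = 0.0073), and that to P28 was 0.65 ± 0.36 (SE, adjusted p = 0.16). Six3 was also highest at P10, with 1.29 and 2.54 RPKM at P4, 28.2 and 14.5 at P10, and 6.33, 6.10 and 9.06 at P28. Mir9-3hg, the host of a microRNA of neural progenitors, had 3.51 and 4.01 RPKM at P4, 12.7 and 14.8 at P10, and 3.79, 3.94 and 4.76 at P28, again with P10 alone high (1.63 ± 0.33 (SE, adjusted p = 0.0048), and 0.11 ± 0.30 (SE, adjusted p = 0.77) to P28). Mir124a-1hg, the host of a neuron-enriched microRNA, had 8.33 and 5.73 RPKM at P4, 26.8 and 22.7 at P10, and 16.5, 15.6 and 18.1 at P28. It was above P4 at both ages, by 1.70 ± 0.29 (SE, adjusted p = 0.0026) and 1.16 ± 0.26 (SE, adjusted p = 0.007), but its change to P28 reversed to -0.26 when scaled to reads in peaks. Rmst, linked to neuronal differentiation, had 2.86 and 0.94 RPKM at P4, 2.84 and 1.24 at P10, and 0.826, 3.29 and 3.54 at P28, with overlap between the ages, and passed no test. The P10 calls were lost for Six3os1 with a pseudocount of 0.1, when scaled to reads in peaks, with voom and without P4 replicates 1 or 2, P10 replicates 1 or 2 or P28 replicates 2 or 3 (adjusted p = 0.011 to 0.055), for Mir9-3hg when scaled to reads in peaks and without P4 replicates 1 or 2, P10 replicate 2 or P28 replicates 2 or 3 (adjusted p = 0.01001 to 0.021) and for Mir124a-1hg when scaled to reads in peaks and without P4 replicate 2 or P28 replicate 2 (adjusted p = 0.0104 to 0.018), and the P28 call of Mir124a-1hg when scaled to reads in peaks, on median centring and without P4 replicates 1 or 2 or P28 replicates 1, 2 or 3 (adjusted p = 0.016 to 0.048). No difference between P10 and P28 was called in these genes.

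**Figure D4:**
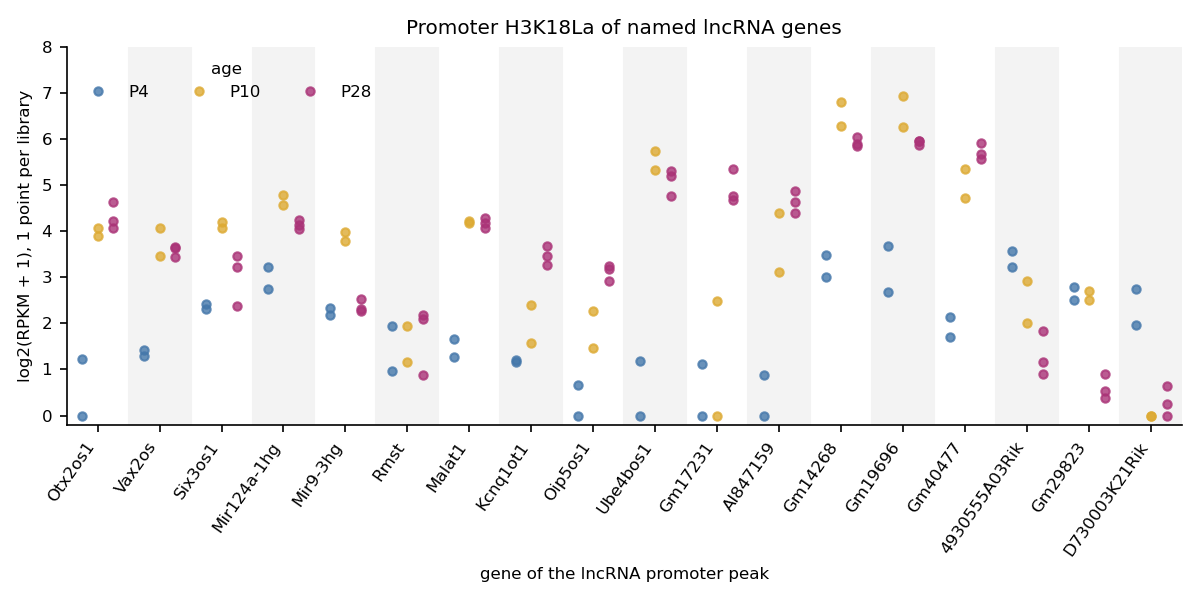
H3K18La level, as log2(RPKM + 1), of named lncRNA promoter peaks, with 1 point per library coloured by age. Otx2os1 rises from 0 and 1.32 RPKM at P4 to between 13.8 and 23.9 in the later libraries, and Mir9-3hg is high at P10 only (12.7 and 14.8 RPKM).

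Of 10 genes listed for nuclear and abundant lncRNAs, 6 had members, with 9 peaks, of which 5 rose from P4 to P28 and none fell, where 18.9% and 4.21% of all peaks did (median log2 change 2.16, and 1.41 scaled to reads in peaks). Malat1, an RNA of nuclear speckles, had 1.4 and 2.15 RPKM at P4, 17.6 and 17 at P10, and 15.8, 17.1 and 18.5 at P28 at chr19:5802461-5804406. It was at its later level already at P10, with changes of 2.74 ± 0.30 (SE, adjusted p = 0.00055) to P10 and 2.72 ± 0.27 (SE, adjusted p = 0.00017) to P28 that held in every setting run. Oip5os1, a conserved RNA that binds a microRNA, had 0 and 0.576 RPKM at P4, 1.74 and 3.8 at P10, and 6.58, 8.07 and 8.5 at P28, and rose after P4 by 2.79 ± 0.42 (SE, adjusted p = 0.0009) at P28, a call lost without P4 replicate 1 (adjusted p = 0.015). 2900097C17Rik had no read in any P4 or P10 library and 2.39, 2.72 and 2.25 RPKM at P28 (log2 change 1.78 ± 0.28 SE, adjusted p = 0.0011), a call lost on median centring and without P4 replicates 1 or 2 (adjusted p = 0.015 to 0.016). Its P28 mean was only 1.20 times the level that 3 reads would give in the P4 libraries, so the size of this rise is not resolved. Of 3 peaks of Lncpint, a p53-induced RNA, that at chr6:31215988-31217348 rose (log2 change 1.45 ± 0.34 SE, adjusted p = 0.0083), a call lost with a pseudocount of 0.1, when scaled to reads in peaks, on median centring and without P4 replicates 1 or 2 or P28 replicates 1, 2 or 3 (adjusted p = 0.022 to 0.047), and the others had adjusted p-values of 0.024 and 0.029. The 2 peaks of Pvt1, a neighbour of Myc, changed by 0.04 ± 0.57 (SE, adjusted p = 0.96) and -0.91 ± 0.55 (SE, adjusted p = 0.2).

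The same list and the imprinted list share Kcnq1ot1, an antisense RNA made from the paternal chromosome that silences its neighbours. It had 1.24 and 1.3 RPKM at P4, 1.97 and 4.3 at P10, and 10, 8.57 and 11.8 at P28 at chr7:143295158-143296992. Only the P28 libraries were high, with a change of 2.28 ± 0.37 (SE, adjusted p = 0.0013) that was lost when scaled to reads in peaks and without P4 replicates 1 or 2 or P28 replicate 3 (adjusted p = 0.011 to 0.017). Airn, the imprinted RNA that silences Igf2r, had 1.86 and 0.612 RPKM at P4, 7.41 and 2.43 at P10, and 5.38, 6.05 and 6.91 at P28, which missed the threshold (log2 change 1.72 ± 0.46 SE, adjusted p = 0.014), and the Igf2r promoter changed by 0.77 (adjusted p = 0.15). These were the 2 of 12 imprinted genes listed with a member peak. Of 4 listed genes of the X inactivation centre, Ftx and Jpx had members, with 5 peaks, of which 1 rose, where 18.9% of all peaks did. That was the Jpx peak upstream of its start (log2 change 1.62 ± 0.40 SE, adjusted p = 0.0099), while the peak at the start had 3.5 and 5.74 RPKM at P4, 6.94 and 9.1 at P10, and 3.53, 8.98 and 9.96 at P28 and did not pass (log2 change 0.52 ± 0.42 SE, adjusted p = 0.34). The 3 Ftx peaks had positive changes of 1.50 to 1.93 with adjusted p-values between 0.012 and 0.028. The upstream Jpx call was lost with a pseudocount of 0.1, when scaled to reads in peaks, on median centring and without P4 replicates 1 or 2 or P28 replicates 1, 2 or 3 (adjusted p = 0.016 to 0.062).

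Small nucleolar RNA hosts of the Snhg family had 10 peaks in 9 genes, of which 3 rose and none fell from P4 to P28, where 18.9% and 4.21% of all peaks did. The change was positive in all 10, as in 66.5% of all peaks (median 1.52, and 0.52 scaled to reads in peaks), and none rose when scaled. Snhg10, whose peak also holds the start of the divergent gene Glrx5, had 2.96 and 4.27 RPKM at P4, 3.52 and 8.21 at P10, and 14, 12.6 and 17.1 at P28 (log2 change 1.76 ± 0.36 SE, adjusted p = 0.0043). Snhg12 had 0.512 and 0.672 RPKM at P4, 4.07 and 1.78 at P10, and 4.73, 7.2 and 6.61 at P28 (log2 change 2.16 ± 0.41 SE, adjusted p = 0.003), and Snhg20 had 0.435 and 1.71 RPKM at P4, 5.19 and 3.02 at P10, and 5.03, 5.89 and 7.61 at P28 (log2 change 1.85 ± 0.42 SE, adjusted p = 0.0068). All P28 libraries stood above both P4 libraries in each. Left out alone, any P4 or P28 library ended each call, with adjusted p-values of up to 0.055 (Snhg10), 0.029 (Snhg12) and 0.057 (Snhg20). All 3 calls were also lost when scaled to reads in peaks, those of Snhg12 and Snhg20 on median centring and those of Snhg10 and Snhg20 with a pseudocount of 0.1. At P10 no Snhg peak was called and their median change was 0.39. Of microRNA hosts, 5 of 9 peaks in 6 genes rose from P4 to P10 (median 1.63), where 11.4% of all peaks did, and 2 of 9 from P4 to P28 (median 1.16), where 18.9% did. When scaled to reads in peaks none rose and 1 fell in each comparison, with medians of 0.45 at P10 and -0.26 at P28. Mir124-2hg had 6.53 and 9.24 RPKM at P4, 27 and 52.3 at P10, and 17.3, 19 and 19.9 at P28 at its start, with P10 above both other ages (log2 change 2.14 ± 0.35 SE, adjusted p = 0.0021), a call lost when scaled to reads in peaks and without P4 replicates 1 or 2 (adjusted p = 0.017 to 0.028). Dleu2, the host of a microRNA cluster lost in leukaemia, had 1.72 and 3.27 RPKM at P4, 10.7 and 11 at P10, and 10.2, 10.1 and 12.5 at P28 at chr14:61680813-61683183 and rose by 1.79 ± 0.34 (SE, adjusted p = 0.004) at P10 and 1.80 ± 0.31 (SE, adjusted p = 0.0017) at P28, calls lost when scaled to reads in peaks and without P4 replicate 1 or P28 replicate 2 (adjusted p = 0.013 to 0.02) at P10 and when scaled to reads in peaks and without P4 replicate 1 or P28 replicates 2 or 3 (adjusted p = 0.011 to 0.016) at P28. The promoters of Mir17hg, whose microRNAs favour proliferation, and of Mir100hg passed the test at no age.

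Among lncRNAs listed for neural development, 5 of 15 had a member peak and the list did not move together. From P4 to P28, 1 of 5 rose (median 0.26, and -0.81 scaled to reads in peaks), which was Otx2os1, where 18.9% of all peaks rose. At P10, Otx2os1 and Six3os1 were higher than at P4 and Pantr2 was lower, where 11.4% and 7.34% of all peaks were. Pantr2, a neighbour of the neural gene Pou3f3, had 2.27 and 2.98 RPKM at P4, 0 and 0 at P10, and 1.97, 1.23 and 0.864 at P28, so that its fall (log2 change -1.85 ± 0.43 SE, adjusted p = 0.009) was from 2 reads in each P4 library to 0. That call was lost with voom and when any of the 7 libraries was left out (adjusted p of 0.011 to 0.036). Nkx2-2os, opposite Nkx2-2, a homeobox gene of neural progenitors, had 0.874 and 3.44 RPKM at P4, 0 and 4.55 at P10, and 1.51, 0.355 and 0.996 at P28 and passed no test.

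Of 61 members in 58 genes named as the opposite strand of another gene, 13 rose and 2 fell from P4 to P28, shares close to the 18.9% and 4.21% of all peaks. Their median change was 1.00, and -0.11 scaled to reads in peaks. The falls were at Il1bos and Kcnmb4os1. The partner coding gene had a promoter peak for 36 of the 61, at a median of 31506 bases away. Both members of the pair rose in 5, the lncRNA alone in 4, the partner alone in 11 and neither in 16. The median change was 1.30 for the lncRNA and 1.49 for the partner promoter. Across the 36 pairs, which share libraries and depth, the changes had a Pearson r of 0.23 and a Spearman rho of 0.18. Members with systematic names made up most of the set, with 241 rises and 14 falls among 1060 peaks with Gm names and 88 and 5 among 383 with Rik names (medians 0.78 and 0.76).

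Members near a listed coding start were higher than the others in every library. A start was listed only where a peak was assigned to it, so the split itself drew on where peaks were called. The difference of medians in log2(RPKM + 1) was 0.29 and 0.18 at P4, 0.10 and 0.09 at P10, and 0.42, 0.26 and 0.42 at P28. Its mean of 0.25 had an exact two-sided sign-flip permutation p of 0.016, the smallest for 7 libraries (0.047 adjusted over 6 tests), and was 0.05 among peaks with a high mean. From P4 to P28, 17 of the 68 near members rose and none fell, against 22.6% and 1.38% of those farther away. Over all peaks 18.9% rose and 4.21% fell. The median change was 0.98 for near members, 0.80 for those farther away and 0.68 over all peaks. By limma, 36 of the 68 (52.9%) had an unadjusted p under 0.05 in either direction, close to the 51.8% of all peaks. The near minus far difference was higher at P28 than at P4 by 0.13 (exact permutation p = 0.4). That change was 0.43 with a distance limit of 5000 bases and 0.28 with the coding starts of GENCODE M21 (exact p = 0.2 for each, the smallest possible). It was 0.08 to 0.19 when 1 library was left out and reversed to -0.07 among peaks with a high mean. Antisense minus lincRNA members differed in median log2(RPKM + 1) by -0.09 and -0.16 at P4 and by 0.17, 0.09 and 0.08 at P28, so that the difference changed by 0.24 (exact permutation p = 0.2, the smallest possible). Of antisense members 26.4% rose from P4 to P28 and of lincRNA members 21.2%, with median changes of 1.05 and 0.70. The lincRNA values were close to the 18.9% and 0.68 of all peaks.

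CpG-rich and CpG-poor lncRNA promoters had like medians at P4 and parted by P28. The median member held 3 reads in each P4 library, and in P4 replicate 2 both classes had the same median of 1.70 RPKM. Small differences at P4 are thus not resolved. CpG-rich minus CpG-poor medians in log2(RPKM + 1) were 0.02 and 0.00 at P4, 0.12 and 0.08 at P10, and 0.67, 0.50 and 0.46 at P28. The P28 difference exceeded the P4 difference by 0.53, without overlap (exact permutation p = 0.2, the smallest possible), and by 0.33 among peaks with a high mean. Over the 7 libraries its mean was 0.26, positive in 6 with 1 at 0 (exact sign-flip p = 0.031, 0.056 adjusted over 6 tests), and 0.05 among peaks with a high mean. That p rose to 0.0625 when any library other than P4 replicate 2 was left out (means of 0.197 to 0.305). From P4 to P28, 65 of the 197 CpG-rich members rose (33.0%) and none fell, against 21.3% and 1.51% of CpG-poor members and 18.9% and 4.21% of all peaks. An unadjusted limma p under 0.05 was found for 122 CpG-rich members (61.9%), for 49.1% of CpG-poor members and for 51.8% of all peaks. Their median change was 1.33, close to the 1.42 of CpG-rich coding promoters, while CpG-poor members changed by 0.72 and CpG-poor coding promoters by 1.19. The P28 mean was the highest for 72.1% of CpG-rich and 47.9% of CpG-poor members. With CpG class held equal the gap to coding promoters at P28 was smaller than the -0.50 over all members. It was -0.18 ± 0.04 (SD, n = 3) among CpG-rich and -0.31 ± 0.04 among CpG-poor promoters, and at P4 -0.03 ± 0.03 and 0.08 ± 0.05 (n = 2).

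Of 4 motifs searched on both strands in the 300-base windows, the CRX and OTX2 core went with the largest change of a difference between P4 and P28. The core TAATCC was found in 168 members (10.6%), in 7.03% of coding promoter peaks, in 7.96% of all promoter peaks and in 7.06% of all 32851 RefSeq promoters. With minus without the core, members differed in median log2(RPKM + 1) by -0.12 and -0.17 at P4, by 0.41 and 0.44 at P10, and by 0.45, 0.47 and 0.45 at P28. Those with it were thus the lower ones at P4 and the higher ones later. The difference thus changed by 0.60 between P4 and P28 (exact permutation p = 0.2) and by 0.57 between P4 and P10 (exact p = 0.33), each the smallest p possible, and by 0.18 at coding promoters between P4 and P28. From P4 to P28, 70 of the 168 (41.7%) rose, against 291 of 1421 (20.5%) without the core, with median changes of 1.41 and 0.73. Over all peaks 18.9% rose, and of coding promoters 39.1% with the core and 33.2% without it. Among CpG-poor members, in which 163 of the 168 fell, the change of the difference was 0.67, and among CpG-poor coding promoters 0.39. Ube4bos1 and Gm17231 hold it, at the capitals in the sequences above, while Otx2os1 and Gm14268 rose without it in this window.

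The differences for the other motifs changed less between P4 and P28. The GC box was found in 292 members (18.4%), in 60.0% of coding promoter peaks, in 49.4% of all promoter peaks and in 35.7% of RefSeq promoters. With minus without the GC box, the median rose from 0.05 at P4 to 0.34 at P28, and among CpG-poor members from 0.02 to 0.11. TATAAA, the TATA box, was found in 10.6% of members, 7.23% of coding promoter peaks, 8.02% of all promoter peaks and 13.6% of RefSeq promoters. With minus without it, the median difference was 0.03 and 0.02 at P4, -0.49 and -0.27 at P10, and -0.31, -0.22 and -0.25 at P28. CCAAT was found in 33.9% of members, 36.7% of coding promoter peaks, 35.4% of all promoter peaks and 37.4% of RefSeq promoters, and members with it differed from the others by -0.08 at P4 and 0.05 at P28. A window can hold several of the motifs.

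**Figure D5:**
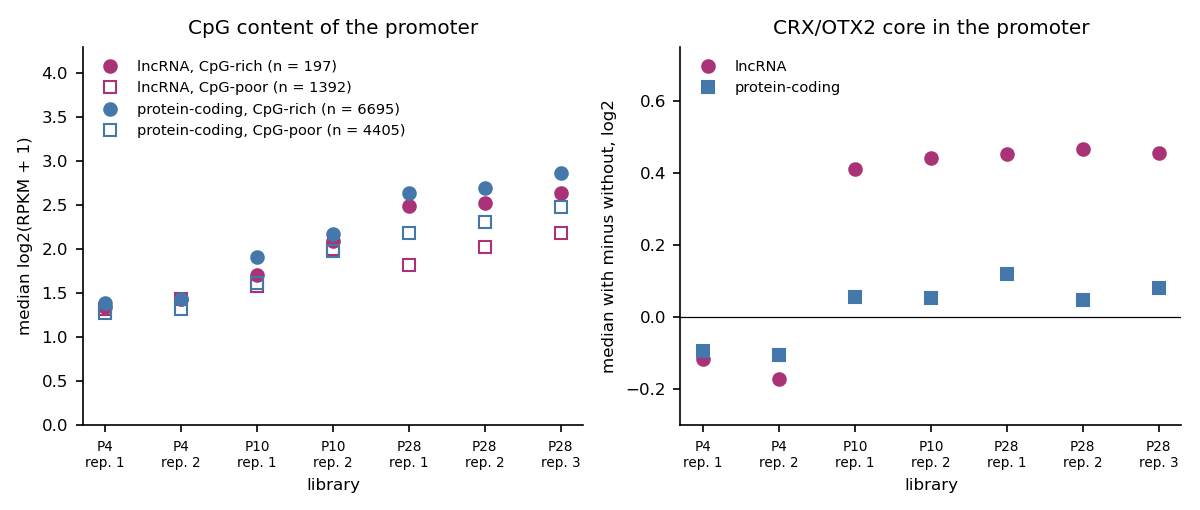
Median log2(RPKM + 1) of CpG-rich and CpG-poor lncRNA and coding promoters in each library (left), and the median with minus without the CRX and OTX2 core (right). The CpG-rich minus CpG-poor difference of lncRNA promoters is 0.00 to 0.12 at P4 and P10 and 0.46 to 0.67 at P28, while their core difference is below 0 at P4 and 0.41 to 0.47 in all later libraries.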

How the data were processed

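CUT&Tag for H3K18La was analysed in 7 retina libraries, grouped by the age in their labels. Per the study's methods and the submitters' processing notes, the authors mapped reads to GRCm38 with nf-core/cutandrun, called peaks with MACS, kept peaks with a q-value past 6 in -log10 units in at least 2 replicates, removed blacklisted regions and merged the ages. They annotated peaks with ChIPseeker 1.34.1, with promoters from 1000 bases before to 500 after a start, counted reads with csaw, normalized on windows of 10000 bases and tested the ages with a count model. The study's methods name a protein A fusion with the transposase Tn5, where the labels name one with MNase. The deposited values used here are RPKM, which the authors computed from reads, peak width and that library size. The authors' differential binding table holds means, log2 fold changes, p-values and FDR, and was not used. The normalization decides the sign of the median change, as the alternatives show.

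RPKM multiplied by width and by a library size inferred for each library gave whole reads for 100% of values (tolerance 0.001), from 199970 to 8274373 reads in peaks per library. Changes were tested with limma 3.58.1 in R 4.3.3 on log2(RPKM + 1), a scale that understates changes of low peaks, with a mean-variance trend, over all 108253 peaks and 7 libraries, with Benjamini-Hochberg adjustment and a threshold of 0.01. The study's count model was replaced as main test by a log-scale test because the deposited values are RPKM. A test on the recovered reads (voom) was run as an alternative. Medians were compared by exact two-sided permutation over libraries. The script was tested on simulated data. CpG content and motifs were read from the RefSeq GRCm38.p6 genome around the deposited transcript starts. The planned RefSeq promoter table matched 748 of the 1589 members (47.1%), which is too few for that check, so it serves as an alternative only. Named peaks were the members of the gene lists, the 10 largest rises and 5 largest falls from P4 to P28, the 5 highest at P28 and at P4 with at least 10 reads, the 3 largest changes each way from P4 to P10, and coding neighbours. The members and lists were chosen with earlier results of these data known. Deposited biotypes were taken as written. Replicate numbers did not pair the libraries.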

Additional observations from a re-analysis of the deposited data

How the results depend on the processing

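The alternatives were a pseudocount of 0.1, only peaks at or above the median mean RPKM (the high-mean filter), scaling to reads in peaks, median centring, voom on the recovered reads, a replicate block, each library left out, and other choices of promoter peaks, some added after the data were seen. The count of members higher at P28 than P4 (361) was 139 when scaled to reads in peaks, 228 with the block and 563 with voom. The count of members lower (21) was 7 with pseudocount 0.1, 5 with the high-mean filter, 177 when scaled, 93 on centring and 90 with voom. Higher at P10 than P4 (234) were 99 when scaled, and lower (66) were 6 with the filter, 179 when scaled, 42 with the block and 0 with voom. Between P10 and P28, higher and lower counts were 11 and 2 with pseudocount 0.1, 0 and 1 with the filter, 0 and 2 when scaled, 19 and 35 on centring, and 37 and 71 with voom. The median level of members changed by -0.397 from P4 to P28 and by -0.515 from P4 to P10 when scaled, and by -0.0031 from P10 to P28 on centring. The cause of these changes was not tested.

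The mean lncRNA minus coding difference was -0.0059 with the high-mean filter (exact sign-flip permutation p = 0.938) and -0.223 over peaks of 500 to 1500 bases (exact p = 0.078), and its change from P4 to P10 reversed to 0.166 with the filter. The mean near minus far difference was 0.052 with the filter, and its change from P4 to P28 reversed to -0.071. The mean CpG-rich minus CpG-poor difference was 0.048 with the filter, 0.246 without members near a GENCODE M21 coding start and 0.194 over matched RefSeq promoters. The change of Gm47157 reversed to -0.18 and that of Mir124a-1hg to -0.26 when scaled. Leaving out 1 library in turn gave 131 to 574 members higher and 8 to 50 lower at P28 than P4, 69 to 313 higher and 12 to 65 lower at P10 than P4, 0 to 241 higher and 0 to 19 lower at P28 than P10, mean lncRNA minus coding differences of -0.304 to -0.201 and mean CpG differences of 0.197 to 0.309. The change of the CRX and OTX2 core difference kept its direction in the alternatives run for it.

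With the replicate block 228 members were higher and 16 lower at P28 than P4, and 204 higher and 42 lower at P10 than P4. Among named peaks the block also ended the P28 against P4 calls of Gm47157, Gm29823, Lncpint, the upstream Jpx peak, Snhg10, Snhg12, Snhg20 and Mir124a-1hg. It ended the P10 against P4 call of Pantr2 as well. Deviations of same-numbered libraries correlated at r = 0.039 (P4 and P10), -0.0004 (P4 and P28) and 0.043 (P10 and P28) across peaks, so the libraries share only a number and the pairing was not used. At P4 and P10 the median member had 4 reads or fewer, and a fall from there is not resolved.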
